A study of Mus musculus with 6 samples.

Results

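The genes described are 10 enzymes of hepatic nitrogen metabolism, named one by one: Cps1, Otc, Ass1, Asl, Arg1, Gls2, Hal, Sds, Tat and Glul. All 10 were found among the 20914 genes of the count table, and all 10 passed the filter on low counts that left 13725 genes tested. The series has 6 libraries of total RNA from mouse liver, of which 3 are labelled PBS and 3 DOX. Every library carries the genotype label BucheKI/KI-Hep, the words CKI and Alb-Cre in its title, and a label of BDL treatment, so the controls share the knock-in, the Cre and the BDL with the DOX group. Alb-Cre stands for a Cre recombinase driven by the albumin promoter, which is active in hepatocytes. By the design text, hepatocytes were made to overexpress butyrylcholinesterase. BDL is a usual abbreviation of bile duct ligation, which the labels leave unexplained. The same holds for DOX and for S10D, which is also in the titles. Neither age nor dose is stated, nor that each library is 1 animal, so p-values measure only how these libraries spread, and part of that may be technical.

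The liver detoxifies ammonia in 2 systems that lie in different zones of the lobule. Periportal hepatocytes, which meet the blood first, take up amino acids, release ammonia with enzymes such as glutaminase, histidase and serine dehydratase, and convert it into urea. Pericentral hepatocytes next to the central vein hold glutamine synthetase, which binds the ammonia that escaped the urea cycle into glutamine. Here Cps1, Otc, Ass1, Asl, Arg1, Gls2, Hal and Sds were taken as periportal and Glul as pericentral. Tat was given no zone. Bulk RNA carries no position, and zones are background knowledge here. In bulk tissue, fewer cells of a kind and less RNA per cell cannot be told apart.

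Bche counts separated the groups, at 193 to 245 CPM (counts relative to library size, with TMM factors that correct for library composition) in PBS and 448 to 969 in DOX. In the edgeR quasi-likelihood test over all genes it did not pass (adjusted p = 0.106), while DESeq2 called it (adjusted p = 2.9e-08). Libraries held 32826493 to 41102844 counts. The hepatocyte list was high everywhere, with 9 of its 10 entries tested and a summed level of 85012 to 96445 CPM in PBS and 99744 to 155535 in DOX. Alb, the albumin gene, alone had 45625 to 57734 CPM in PBS and 60634 to 113495 in DOX. The other 8 genes summed to 36640.1 to 39387 CPM in PBS and 39109.9 to 47065 in DOX. PBS replicate 2 stood apart on other lists. Its 12 cholangiocyte genes summed to 414 CPM, against 289 to 314 in the other PBS libraries and 142 to 276 in DOX. Its 10 endothelial genes summed to 57.4 CPM, against 167 to 169 in the other PBS libraries and 139 to 259 in DOX, and no gene of either list was at 0 in all libraries. The part of these shifts in the results below was not tested.

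None of the 10 nitrogen genes changed between DOX and PBS at an adjusted p of 0.05 (edgeR quasi-likelihood test). Among all 13725 genes, 4 passed, or 0.0291%. DESeq2 also called 0 of the 10, where it called 1.19% of genes. At an unadjusted p under 0.05, edgeR gave 1 of the 10, Glul, where 9.9% of all genes did so. Of the 10 log2 fold changes (log2FC, DOX minus PBS), 8 were negative and 2 positive, Otc and Glul, with a median of -0.21 beside -0.02 over all genes. This tilt depended most on 2 libraries. PBS replicate 2 was the highest of the 6 libraries for 8 of the 10 genes, and the lowest for Glul. DOX replicate 1 was the lowest for 6 genes and the highest for Glul. Without PBS replicate 2 the signs were 5 positive and 5 negative with a median of -0.03, and the same split and median were found without DOX replicate 1. These libraries were picked for extreme values in the same data, so leaving them out shrinks the difference by itself. Leaving out any other library kept 8 negative and 2 positive signs, with medians from -0.24 to -0.35.

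**Figure D1:**
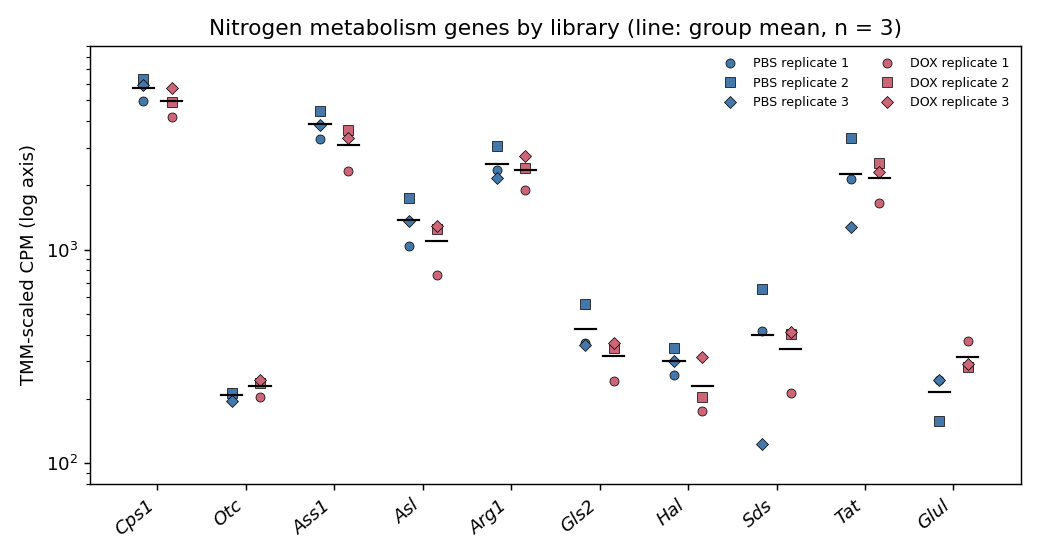
TMM-scaled CPM of the 10 genes in each library, on a log axis, with PBS in blue, DOX in red, marker shapes for replicate numbers and lines for group means (n = 3 each). PBS replicate 2 (square) was highest for 8 genes, and only Glul showed groups that do not overlap.

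Compared per length, the 10 genes spanned a wide range. The deposited FPKM values (counts relative to gene length and library size) put Ass1 first, with 2486 ± 299 for PBS against 1818 ± 429 for DOX (mean ± SD, n = 3 each). Arg1 followed at 1786 ± 270.2 and 1519 ± 239, then Cps1 at 1061 ± 106 and 836 ± 108. Tat, Asl and Sds lay between these and the low end, with PBS means of 726, 609 and 279.9 FPKM. Gls2 came next at 178 ± 39.8 in PBS and 122 ± 24.4 in DOX, ahead of Hal at 113 ± 13.0 and 78.8 ± 20.8. Glul had 81.4 ± 21.4 and 108 ± 17.8, and Otc was lowest at 51.6 ± 2.32 and 51.8 ± 5.06. In this order, the libraries of Cps1 and Tat, of Tat and Asl, and of Sds and Gls2 overlapped in both groups. Ass1 with Arg1, Gls2 with Hal and Hal with Glul overlapped in DOX but not in PBS. The length matters for the tail of the order: the FPKM values imply 4213 bases for Otc and 2776 for Hal, whereas the longest coding transcripts in the GENCODE annotation of GRCm38 have 2997 and 5319 bases. With the annotated lengths the mean over all 6 libraries became 72.7 for Otc and 50.1 for Hal, so that Hal rather than Otc was last. The 5 urea cycle enzymes together took 1.27% to 1.59% of all counts in PBS and 0.904% to 1.25% in DOX, a share that also moves with Alb, which took 4.87% to 5.81% in PBS and 6.09% to 10.2% in DOX.

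Cps1 (chromosome 1, 67123026 to 67231259 in GRCm38) encodes the mitochondrial carbamoyl-phosphate synthetase, which fixes ammonia and sets the pace of the cycle. It stood at 4966, 6327 and 5893 CPM in PBS replicates 1 to 3 and at 4187, 4929.7 and 5747 in DOX replicates 1 to 3. The groups overlapped, since DOX replicate 3 reached above PBS replicate 1. The log2FC was -0.21 (SE 0.19, 95% interval -0.64 to 0.22, adjusted p = 0.738). Leaving out PBS replicate 2 gave -0.13, and leaving out DOX replicate 1 gave -0.09. Leaving out DOX replicate 3 gave -0.33. Relative to library size only, as in the FPKM table, all 3 DOX values (712 to 917 FPKM) lay below all 3 PBS values (939 to 1128). That scaling also shifted the median of all genes by -0.14 on the log2 scale, and on it 19.6% of all genes had a lower, not overlapping DOX group, against 9.02% with TMM.

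Otc (chromosome X, 10252305 to 10321024), the ornithine transcarbamylase that makes citrulline in mitochondria, was the one urea cycle enzyme with a positive log2FC. Its CPM were 214, 213 and 196 in PBS and 203, 236 and 246 in DOX. DOX replicate 1 fell within the PBS range and the other DOX libraries lay above it. The log2FC of 0.14 (SE 0.11, 95% interval -0.12 to 0.40) did not pass (adjusted p = 0.706), and scaled by library size only it was 0.0065. Otc also had the smallest SE of the 10 genes.

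Ass1 (chromosome 2, 31470207 to 31520672) and Asl (chromosome 5, 130011258 to 130029247) carry out the cytosolic steps that build and split argininosuccinate. Ass1 stood at 3315, 4480.3 and 3852 CPM in PBS and at 2346, 3639 and 3317 in DOX. DOX replicate 1 was below all PBS libraries, while the other DOX libraries lay above PBS replicate 1. Asl stood at 1043, 1737 and 1366 CPM in PBS and at 764, 1250.2 and 1298 in DOX, again with DOX replicate 1 alone below the PBS range. Both had a log2FC of -0.32 (SE 0.21 for Ass1 and 0.25 for Asl), and neither passed (adjusted p = 0.631 and 0.699). Without DOX replicate 1 these values were -0.15 and -0.11, and without PBS replicate 2 they were -0.21 and -0.13. Other omissions widened them, to -0.45 for Ass1 without DOX replicate 2 and to -0.49 for Asl without PBS replicate 1.

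Arg1 (chromosome 10, 24915221 to 24927484), the liver arginase that releases urea, had 2353, 3064 and 2170 CPM in PBS, a spread that DOX matched with 1911, 2416 and 2737. Its log2FC of -0.10 (SE 0.20, adjusted p = 0.890) turned to 0.06 without PBS replicate 2 and to 0.04 without DOX replicate 1. The mean over the 5 urea cycle enzymes was 10.8 ± 0.194 in PBS and 10.6 ± 0.271 in DOX on the log2(CPM + 1) scale, and the difference of -0.17 was smaller than the SD of either group. Leaving out PBS replicate 2 gave -0.06, leaving out DOX replicate 1 gave -0.02, and scaling by library size only gave -0.30. Leaving out any other library gave a wider difference, from -0.19 (PBS replicate 3) to -0.27 (DOX replicate 3). The 95% intervals of the 5 genes ran from -0.90 (Asl, lower end) to 0.40 (Otc, upper end), which leaves room for differences of either sign at 3 libraries a group.

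Gls2 (chromosome 10, 128194457 to 128210004) is the liver glutaminase that feeds ammonia to Cps1. PBS replicate 2 held 554 CPM, and the other PBS libraries held 367 and 357. DOX libraries had 244, 345 and 367 CPM, so that DOX replicate 3 matched PBS replicate 1. Among the periportal genes Gls2 had the most negative log2FC, -0.42 (SE 0.22, 95% interval -0.91 to 0.08), which did not pass (adjusted p = 0.558) and was -0.18 without PBS replicate 2. Without PBS replicate 3 it was -0.53. In the FPKM table its groups did not overlap, at 94.1 to 139 FPKM in DOX and 153 to 224 in PBS. With Cps1 this made 2 of the 10 genes, near the 19.6% of all genes.

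Hal (chromosome 10, 93488768 to 93519304), the histidase that removes ammonia from histidine, stood at 258, 345 and 301 CPM in PBS and at 176, 204 and 313 in DOX. DOX replicates 1 and 2 lay below the PBS range and DOX replicate 3 lay within it. The log2FC was -0.38 (SE 0.22, adjusted p = 0.580), and it was -0.66 without DOX replicate 3. Leaving out DOX replicate 1 gave -0.21, and leaving out PBS replicate 2 gave -0.27.

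Sds (chromosome 5, 120476526 to 120483932), the serine dehydratase of gluconeogenic amino acid breakdown, had the widest spread. PBS libraries held 418, 651 and 123 CPM, and DOX libraries 213, 401 and 410.4. The PBS range enclosed the whole DOX range, and the 95% interval of the log2FC, -1.39 to 0.95 around -0.22, corresponds to 0.382-fold to 1.93-fold (adjusted p = 0.912). Leaving out PBS replicate 2 turned the log2FC to 0.34, and leaving out DOX replicate 1 turned it to 0.04. Tat (chromosome 8, 109990437 to 109999803), the tyrosine aminotransferase that glucocorticoids are known to induce, was 2131, 3334 and 1284 CPM in PBS and 1657, 2539 and 2322 in DOX. Like Sds it was highest in PBS replicate 2 and lowest in PBS replicate 3. Its log2FC was -0.05 (SE 0.33, adjusted p = 0.973), and it was 0.35 without PBS replicate 2.

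Glul (chromosome 1, 153899944 to 153909723), the glutamine synthetase of the pericentral zone, was the one gene whose groups did not overlap on TMM-scaled CPM. PBS libraries held 246, 157 and 244 CPM, and DOX libraries 372, 284 and 290.5. Every DOX value lay above every PBS value, by the smallest gap between DOX replicate 2 and PBS replicate 1. Its log2FC of 0.55 (SE 0.19) equals a ratio of 1.46, whose 95% interval spans 1.07 to 1.99. It did not pass over all genes (adjusted p = 0.435). A two-sided exact permutation test gave p = 0.1, below which 3 against 3 libraries cannot go. A higher, not overlapping DOX group was found in 7.84% of all genes, so 1 in 10 is near that share. In the FPKM table the groups of Glul touched, because DOX replicate 3 with 93.8 FPKM lay below PBS replicate 1 with 94.0, and there 2.56% of genes had a higher, not overlapping DOX group. Without PBS replicate 2, the lowest library, the log2FC was 0.36 (adjusted p = 0.563).

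**Figure D2:**
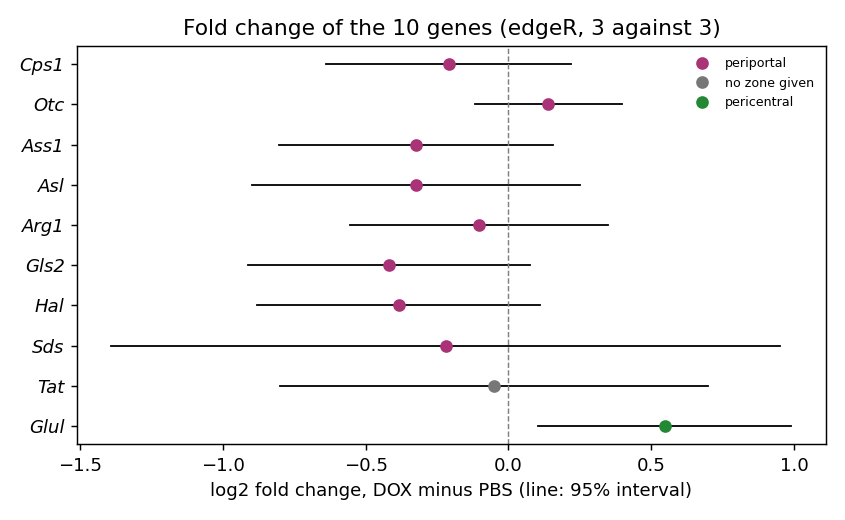
Log2 fold change of each gene, DOX minus PBS, from the edgeR fit, with lines for 95% intervals, and colours for periportal, pericentral and no zone. The interval of Glul, 0.10 to 0.99, is the only one of the 10 that leaves out 0, before adjustment over all genes.

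The 250 bases before the RefSeq start are given for Glul, for Hal and for Otc (GRCm38.p6, plus strand, 5′ to 3′). Glul and Otc had a positive log2FC and Hal a negative one, and none of them passed. The RefSeq promoter table held 5 of the 10 genes, and the windows of Ass1 and Tat are not shown. Capitals mark matches, on either strand, to 5 motifs. They are TATAA for the core promoter box, CTTTGAT for the TCF/LEF factors of Wnt signalling, TGTTCT for part of the glucocorticoid receptor site, TGACG for part of the cyclic AMP response site, and CCAAT for the box bound by nuclear factor Y. The 3 windows are chr1:153899679-153899928 for Glul, chr10:93488518-93488767 for Hal and chrX:10252055-10252304 for Otc.
Glul: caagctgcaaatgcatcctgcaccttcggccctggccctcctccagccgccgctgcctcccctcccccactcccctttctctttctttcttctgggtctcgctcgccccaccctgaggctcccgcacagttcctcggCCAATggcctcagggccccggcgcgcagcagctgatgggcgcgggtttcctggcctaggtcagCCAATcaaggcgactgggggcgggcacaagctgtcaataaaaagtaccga
Hal: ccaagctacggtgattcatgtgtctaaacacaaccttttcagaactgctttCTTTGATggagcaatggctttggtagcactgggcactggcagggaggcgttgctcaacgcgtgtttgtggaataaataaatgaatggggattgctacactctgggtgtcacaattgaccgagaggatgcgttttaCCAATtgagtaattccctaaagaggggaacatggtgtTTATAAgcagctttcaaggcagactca
Otc: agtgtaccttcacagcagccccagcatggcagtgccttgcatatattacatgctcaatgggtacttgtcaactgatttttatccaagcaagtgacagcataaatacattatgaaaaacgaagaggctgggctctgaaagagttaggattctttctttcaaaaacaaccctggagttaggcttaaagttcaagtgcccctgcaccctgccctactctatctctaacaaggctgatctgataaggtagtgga
The window of Glul held CCAAT 113 and 50 bases before the start, a motif present in 33.8% of the 32851 windows of the same length, and none of the other 4. In Hal the TATAA match, which overlaps its own reverse complement, began 26 bases before the start (22.8% of windows hold one), CCAAT lay at 64 bases and CTTTGAT, which 3.21% of windows hold, at 199. Otc had no match to any of the 5, which says only that these letters are absent from this window. The glucocorticoid letters, present in 16.1% of windows, and those of the cyclic AMP site, present in 17.8%, were in none of the 3.

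Periportal against pericentral expression was compared within libraries, where scaling cancels, as counts of each periportal gene per count of Glul. All 8 mean ratios were lower in DOX. Ass1 per Glul was 13.5, 28.5 and 15.8 in PBS and 6.31, 12.8 and 11.4 in DOX, or 0.534-fold. Cps1 per Glul was 20.2, 40.3 and 24.1 in PBS and 11.3, 17.4 and 19.8 in DOX, or 0.582-fold. Gls2 per Glul was 1.49, 3.52 and 1.46 in PBS and 0.656, 1.22 and 1.26 in DOX, or 0.508-fold. For these 3 of 8 genes the groups did not overlap (exact two-sided permutation p = 0.1 each, the smallest possible). The other 5 overlapped, with permutation p from 0.2 for Arg1 and Hal to 0.5 for Sds. All these ratios share the Glul counts. Against Glul, 52% of all tested genes had a lower, not overlapping DOX ratio, so the periportal genes did not stand out from the transcriptome in this respect. The mean of the 8 genes minus Glul was 1.83, 2.91 and 1.72 in PBS and 0.77, 1.63 and 1.74 in DOX on the log2(CPM + 1) scale, and the groups overlapped. The difference between group means was -0.77. It was -0.39 without PBS replicate 2 and -0.99 without PBS replicate 3.

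**Figure D3:**
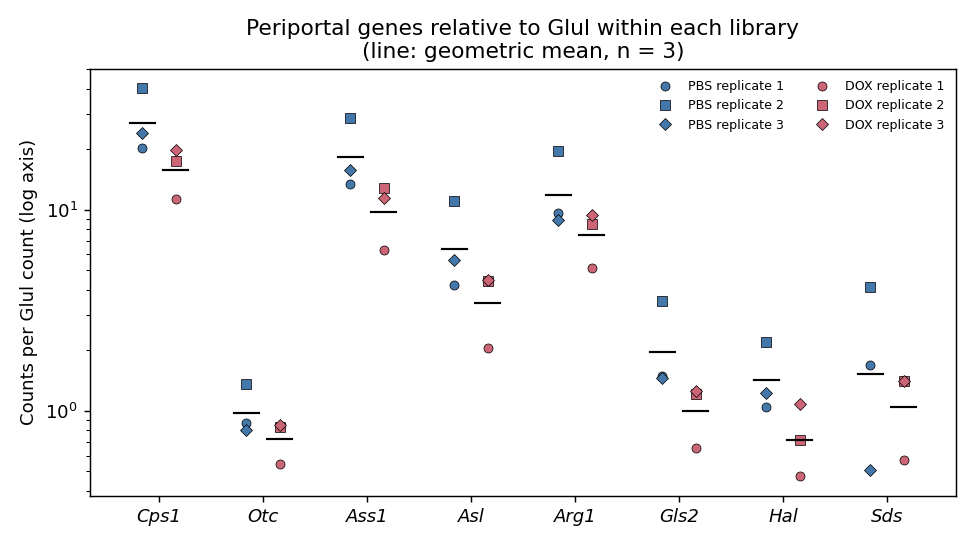
Counts of each periportal gene per count of Glul in each library, on a log axis, with lines for geometric means (n = 3 each). PBS replicate 2 (square) has the highest ratio for all 8 genes, and the groups of Cps1, Ass1 and Gls2 do not overlap.

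Markers of the 2 zones outside the 10 genes did not move as 1 block. Of 10 periportal markers, 6 had a positive and 4 a negative log2FC (median 0.20), and of 15 pericentral markers, 8 had a positive and 7 a negative one (median 0.08). None passed in edgeR. Cdh1, the E-cadherin gene, which bile duct cells express as well, stood at 78.3, 113 and 90.0 CPM in PBS and at 67.3, 59.9 and 46.1 in DOX. Its groups did not overlap (log2FC -0.70, SE 0.17, adjusted p = 0.308), and it passed with DESeq2 (adjusted p = 0.032). Of the 10 periportal markers, 1 had a lower, not overlapping DOX group, near the 9.02% of all genes. DESeq2 called 1 of the 10 lower, beside 0.324% of all genes. The summed cholangiocyte genes given above were also lower in DOX, and their part in Cdh1 was not tested. Hsd17b6, a steroid dehydrogenase, was 4.29, 1.36 and 4.82 CPM in PBS and 53.5, 2.75 and 21.5 in DOX, so that DOX replicate 2 lay within the PBS range (adjusted p = 0.399). Pigr, the polymeric immunoglobulin receptor, had a log2FC of -0.37 (adjusted p = 0.542).

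On the pericentral side, Rgn, the regucalcin gene, stood at 178, 37.9 and 129 CPM in PBS and at 309, 359.5 and 357 in DOX. All DOX libraries were higher, by a log2FC of 1.57 (SE 0.45), and the call was missed at an adjusted p = 0.375. Gulo, the last enzyme of vitamin C synthesis, had 0.53 (SE 0.22, adjusted p = 0.485). Lgr5, a Wnt target and receptor, went the other way at -0.99 (SE 0.42, adjusted p = 0.496), on no more than 1.68 CPM in any library. Rgn, named here for the smallest p of its list, shared with Glul the direction and the absence of overlap. It was 1 of the 15 markers with a higher, not overlapping DOX group, near the 7.84% of all genes. The 15 markers as a list did not follow Glul. The mean of these 15 in PBS replicate 2 was 5.10 on the log2(CPM + 1) scale, below the 5.59 to 6.01 of the other libraries, and Glul was lowest in the same library. The next lowest mean, 5.59, was that of DOX replicate 1, where Glul was highest.

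**Figure D4:**
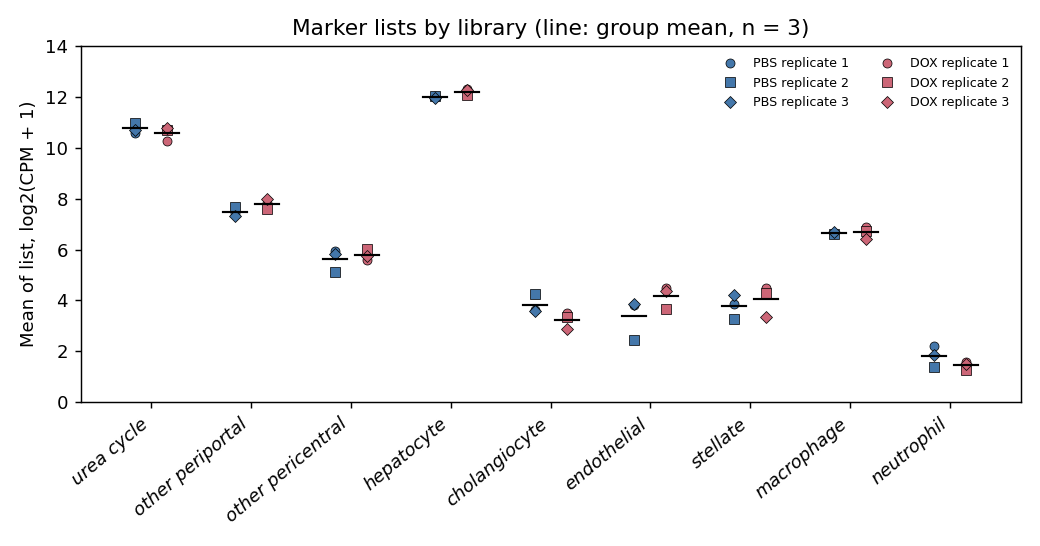
Mean of log2(CPM + 1) over each gene list in each library, with lines for group means (n = 3 each). PBS replicate 2 (square) has the highest urea cycle and cholangiocyte means and the lowest pericentral and endothelial means.

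The wider nitrogen pathway was read from 3 lists with 64 tested genes: transporters and partners of the urea cycle, handling of glutamate and glutamine, and amino acid breakdown. In edgeR 0 of the 64 changed, 27 had a positive and 37 a negative log2FC, and the median was -0.02, as over all genes. At an unadjusted p under 0.05, 1 of the 64 was higher and 6 were lower, beside 5.03% and 4.87% of all genes. DESeq2 called 1 of them lower, beside 0.324% of all genes.

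That gene was Got1, the cytosolic aspartate aminotransferase, which links glutamate to the aspartate that Ass1 uses. It held 696, 972 and 759.7 CPM in PBS and 262, 477 and 388 in DOX. Every DOX library lay below every PBS library, and the log2FC of -1.11 (SE 0.23) was larger in size than that of any of the 10 genes. Over all genes it did not pass in edgeR (adjusted p = 0.216), whereas DESeq2 called it (adjusted p = 0.00036), as did edgeR when no low-count filter was set. Across all alternatives its log2FC stayed between -1.31 and -0.90 and its adjusted p between 0.00036 and 0.428. On the same list, Oat, the pericentral ornithine aminotransferase, was 487, 500.0 and 651 CPM in PBS and 207, 573 and 276 in DOX, with DOX replicate 2 inside the PBS range (adjusted p = 0.569). Slc1a4, a neutral amino acid transporter, had a log2FC of -0.53 (adjusted p = 0.520).

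Among the partners of the urea cycle, the 2 mitochondrial carriers pointed in opposite directions. Slc25a13, the citrin carrier that exports aspartate for Ass1, stood at 184, 181 and 175 CPM in PBS and at 187, 225 and 235 in DOX, without overlap (log2FC 0.26, SE 0.11, adjusted p = 0.5005). Slc25a15, the ornithine carrier, was 489, 506 and 465 CPM in PBS and 292, 483 and 324 in DOX, where DOX replicate 2 lay within the PBS range (log2FC -0.41, SE 0.19, adjusted p = 0.509). Arg2, the mitochondrial arginase found mostly outside the liver, had at most 2.33 CPM in any library, far below Arg1.

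In amino acid breakdown, 5 of the 39 tested genes had a lower and 2 a higher DOX group without overlap, where the shares over all genes were 9.02% and 7.84%. None of the 39 passed in edgeR or DESeq2. Aass, which starts lysine breakdown, stood at 584, 823 and 618 CPM in PBS and at 352, 507 and 460.4 in DOX (log2FC -0.62, SE 0.19, adjusted p = 0.396). Sdsl, a relative of Sds, stood at 41.3, 56.3 and 36.4 CPM in PBS and at 29.1, 30.8 and 35.8 in DOX (log2FC -0.48, SE 0.16, adjusted p = 0.423). Both genes had DOX values below the whole PBS range, and DESeq2 gave adjusted p = 0.085 for Aass and 0.328 for Sdsl.

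**Figure D5:**
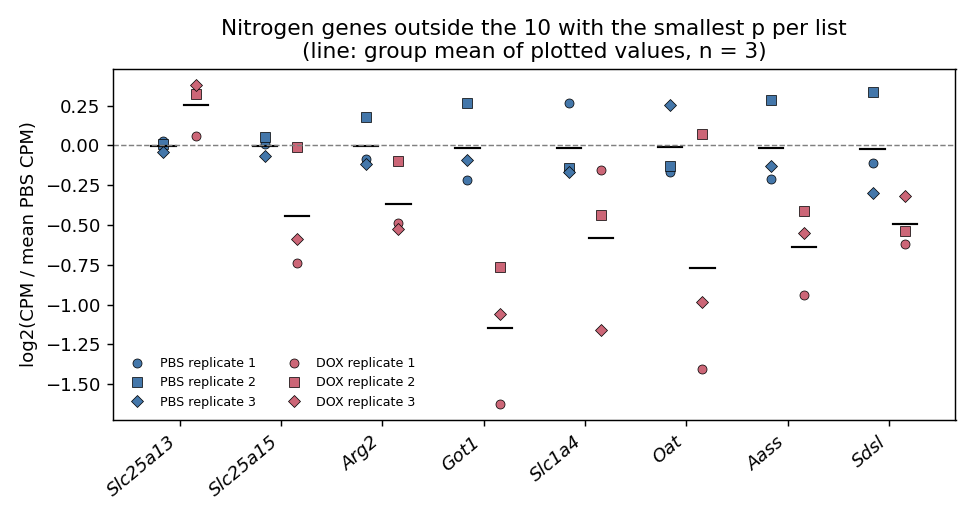
CPM of 8 nitrogen genes outside the 10, as log2 of the ratio to the PBS mean, in each library, with lines for group means of the plotted values (n = 3 each). For Got1 all 3 DOX libraries lie below all 3 PBS libraries.

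Regulators of these genes showed no call among 13. Of the 13, 1 had a lower and 0 a higher DOX group without overlap, beside 9.02% and 7.84% of all genes. The smallest p belonged to Creb1, a cyclic AMP responsive factor (log2FC -0.24, adjusted p = 0.552), Gcgr, the glucagon receptor (0.26, adjusted p = 0.569), and Atf4, a factor of the amino acid response (-0.19, adjusted p = 0.572). Across the 6 libraries and 7735 genes with a mean of at least 10 CPM, the genes most like the urea cycle mean were Aadat, an aminotransferase of lysine and tryptophan breakdown (Pearson r = 0.997), Mapk9 (r = 0.993) and Anp32a (r = 0.991). Those most like Glul were Cyp2c70, a cytochrome P450 of mouse bile acid synthesis (r = 0.998), Rcn1 and Gatd1 (both r = 0.996). These values are descriptions over 6 points that include both groups, and they are the highest picked from 7735 genes. Mapk9 varied little, from 41.9 to 47.6 CPM, and Anp32a ran from 72.7 to 87.6 CPM. Cyp2c70 itself had 405 CPM in PBS replicate 2, 747 to 781 in the other PBS libraries and 892 to 1319 in DOX (adjusted p = 0.457).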

How the data were processed

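Per the labels' protocols, total RNA was column-purified from liver and sequenced after a SMARTER mRNA-Seq preparation. GRCm38 and mm10 are the builds in the submitters' processing notes. The sources used here do not give the aligner, the counter or the strand setting. The authors deposited whole-number counts per gene and FPKM values for the same 6 libraries. For 18913 of 18913 genes checked, the deposited FPKM equal counts divided by a single gene length and by the library's total (relative tolerance 1e-05).

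The test was edgeR 4.0.16 in R 4.3.3 (filterByExpr, TMM, quasi-likelihood, legacy = TRUE, no block) on the counts of 13725 genes, with Benjamini-Hochberg adjustment and a threshold of 0.05. Standard errors derive from its F statistic. Exact two-sided permutation tests covered 3 against 3 libraries. No library repeated another of its group: within groups, chi-square over degrees of freedom was 41.9 to 132.2. Pairs across the groups were not compared in this way. The procedure was tested on simulated data. Alternatives used DESeq2 1.42.0, limma 3.58.1 (voom, or log2 of FPKM plus 1 or 0.1), other scalings and filters, a replicate block and leaving out each library.

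The members and lists were chosen with earlier results of these data known. Beside the members and Bche, each list names the 3 genes of smallest p (the values of 1 of them are not reported here), and the 3 genes with the highest correlation are named for Glul and the urea cycle mean. In all lists, Tdh, Tf and Trbc2 were not matched by symbol. Gene positions are from GENCODE M21 (GRCm38), promoters from RefSeq (GRCm38.p6).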

Additional observations from a re-analysis of the deposited data

How the results depend on the processing

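No alternative called any of the 10 genes. Cps1, Otc, Ass1, Asl, Gls2, Hal and Glul kept their sign in all 17 alternatives, and Glul ranged from 0.36 to 0.65 (adjusted p = 0.166 to 0.693). When 1 library was left out, Arg1 ran from -0.22 to 0.059, Sds from -0.65 to 0.34 and Tat from -0.33 to 0.35 on the log2 scale. With limma-voom, Sds and Tat were 0.016 and 0.029. The cause was not tested. Over all genes, where the edgeR fit called 4, DESeq2 called 176, limma-voom 2, no filter 61 and limma on FPKM without a filter 1. Of the 64 wider genes, DESeq2 and the fit without a filter called 1 each, Got1 in both. Chosen after seeing the data were the setting legacy = FALSE, which called 0 of the 10, and the counts without overlap by scaling or library. Of the 8 ratios to Glul, 3 to 6 did not overlap when 1 library was left out. With all 6 libraries, 52% of all tested genes had such a lower ratio. That share was not computed with 1 library left out, where a lack of overlap is easier to reach. These counts therefore say nothing about the periportal genes in particular.

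With the replicate block, 21 genes and 0 of the 10 were called, and Tat was 0.027. At an unadjusted p under 0.05 the block gave 5 of the 10 and limma on filtered FPKM 4, where the edgeR fit gave 1. Over all genes that share was 9.9% in the edgeR fit and was not computed for the block or for FPKM. The counts of 5 and 4 therefore say nothing about these genes in particular. On filtered FPKM the median log2FC of all genes was itself -0.11 with 1 added and -0.13 with 0.1 added. Deviations from the group mean correlated at 0.244, 0.171 and 0.023 between same-numbered libraries, and at -0.229 to 0.076 between the others. PBS replicate 3 correlated best with DOX replicate 1 (0.066). The labels give the numbers no meaning, so they were not taken as a pairing, and the block is given only as an alternative. The 10 genes had at least 4616 counts in every library.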

Other observations

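Sds and Tat were both lowest in PBS replicate 3, and so were Pck1 and Igfbp1, which were chosen after their values were seen. The share of all genes lowest in that library was not computed, so these genes do not show a common pattern. Pck1, the gluconeogenic carboxykinase, stood at 1941, 2945 and 926 CPM in PBS and at 2728, 3921 and 2703 in DOX (edgeR adjusted p = 0.572). Igfbp1, a secreted binding protein of insulin-like growth factors, stood at 133, 252 and 61.0 CPM in PBS and at 293, 215 and 225 in DOX (edgeR adjusted p = 0.600). Of the urea cycle enzymes, Otc was also lowest of the 6 libraries in PBS replicate 3, at 196 CPM, and Arg1 was lowest there among the PBS libraries, at 2170 CPM. For Cps1, Ass1 and Asl that library lay between the other PBS libraries.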
